A study of Mus musculus with 8 samples.

Results

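A set of 10 transcription factor genes that carry the T cell receptor signal into the nucleus were followed in cultured regulatory T cells (Tregs), out of the 19330 genes of the deposited count table. They are Egr1, Egr2 and Egr3 of the early growth response family, Nr4a1, Nr4a2 and Nr4a3 of the orphan nuclear receptors, Nfatc1, Nfatc2 and Nfatc3 of the NFAT family, and Tox. They were picked by gene name, and all 10 passed the filter on low counts that left 16434 tested genes. Spleens of B6 mice gave naive CD4+ T cells, which were polarized towards Tregs for 3 days in culture with oxPAPC (4 libraries) or without it (4 libraries labelled Control). oxPAPC is a mixture of oxidized phospholipids of the kind found in atherosclerotic plaque. Both groups therefore share the polarizing culture, and freshly isolated Tregs were not analysed here. The dose of oxPAPC, the vehicle and the age of the mice are not given in the sources used here. No label states that the replicates are separate animals or cultures, and p-values therefore reflect the spread of these libraries alone, which may be technical. The question is how oxPAPC alters gene expression as Tregs form.

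Engagement of the T cell receptor opens 2 main routes to these genes. In one, calcium activates the phosphatase calcineurin, which strips phosphates from NFAT proteins so that they enter the nucleus. In the other, the ERK kinases act through serum response factor to switch on Egr genes within minutes, and Nr4a genes are induced as quickly. Egr2 and Egr3 restrain T cell activation, Nr4a receptors help keep Foxp3 expressed in Tregs, and Tox, an HMG-box factor, is best known from chronically stimulated CD8+ T cells, where NFAT induces it. NFAT activity is set largely by where the protein is, so the transcript level alone does not report it.

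Relatives differed here in level, so sequences just upstream of a transcript start are given first for the Nr4a family and for Egr2. The letters show what their promoters share. Each window is the 250 bases before a RefSeq transcript start on GRCm38.p6, 5′ to 3′ on the strand of the gene. The Nr4a1 and Egr2 windows lie inside the annotated spans of their genes, and the Nr4a3 window reaches past the annotated gene start. Capitals mark matches on either strand to the cAMP response element half-site TGACG, the NFAT core GGAAA, the Egr site GCGNGGGCG, or the CArG box bound by serum response factor. None of these matches overlap one another in the windows printed.
Nr4a1, chr15:101266596-101266845, plus strand: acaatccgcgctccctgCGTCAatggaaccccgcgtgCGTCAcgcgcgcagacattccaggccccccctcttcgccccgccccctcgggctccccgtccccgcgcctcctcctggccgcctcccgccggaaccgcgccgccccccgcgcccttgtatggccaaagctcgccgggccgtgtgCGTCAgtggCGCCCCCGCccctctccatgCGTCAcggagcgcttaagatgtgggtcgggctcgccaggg
Nr4a2, chr2:57124004-57124253, minus strand: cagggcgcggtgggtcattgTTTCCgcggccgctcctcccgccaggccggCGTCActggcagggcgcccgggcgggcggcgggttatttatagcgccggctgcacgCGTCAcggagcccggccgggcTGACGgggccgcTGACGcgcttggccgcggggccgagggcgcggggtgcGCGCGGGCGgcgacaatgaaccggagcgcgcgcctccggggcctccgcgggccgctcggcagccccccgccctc
Nr4a3, chr4:48045055-48045304, plus strand: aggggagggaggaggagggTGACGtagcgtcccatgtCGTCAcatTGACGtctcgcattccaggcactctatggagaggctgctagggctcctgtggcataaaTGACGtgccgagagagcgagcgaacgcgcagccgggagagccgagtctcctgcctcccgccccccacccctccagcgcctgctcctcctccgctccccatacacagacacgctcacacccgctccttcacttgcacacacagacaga
Egr2, chr10:67537619-67537868, plus strand: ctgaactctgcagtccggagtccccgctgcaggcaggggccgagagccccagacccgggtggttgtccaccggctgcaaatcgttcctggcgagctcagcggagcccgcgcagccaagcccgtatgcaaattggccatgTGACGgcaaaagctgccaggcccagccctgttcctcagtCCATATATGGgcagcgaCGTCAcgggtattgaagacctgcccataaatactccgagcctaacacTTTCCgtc

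Each of the 3 Nr4a windows held 4 TGACG half-sites, a number reached by only 45 of 32851 promoters of the same length, or 0.137%. At least 1 half-site is in 17.8% of promoters. Nr4a1 and Nr4a2 also had 1 match each to the Egr site (4.7% of promoters), and Nr4a3 had none. The NFAT core, which 55.6% of promoters contain, was matched in the Nr4a2 window and not in those of Nr4a1 and Nr4a3. In the Egr2 window there were 2 half-sites, 1 NFAT core and 1 CArG box, the last in 1.47% of promoters. A CArG box is in 4 of the 5 Egr2 windows of the reference table, of which 3 overlap one another. The windows of Nfatc2 and Nfatc3 were searched as well. The full element TGACGTCA (1.55% of promoters), the AP-1 site TGANTCA (6.75%) and the Nr4a site AAAGGTCA (1.34%) were matched in no window of these 6 genes. A match is a string of letters, and no binding was measured.

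The libraries held 14017583 to 20554614 gene counts with oxPAPC and 16416538 to 21619731 in Control. Foxp3, which defines Tregs, had 145 ± 52.1 CPM (library-scaled counts after TMM scaling) with oxPAPC and 154 ± 34.1 CPM in Control (SD, n = 4 each). The T cell markers Cd3d, Cd3e, Cd3g, Cd4, Trac and Cd28 summed to 1296 to 1490 CPM with oxPAPC and 1523 to 1733 CPM in Control, and among them Cd28, the costimulatory receptor, fell (54.1 CPM with oxPAPC and 97.9 CPM in Control, edgeR adjusted p = 0.00651). The share of the noncoding gene Gm26917 ranged from 9.35% to 19.4% with oxPAPC and from 8.59% to 29.1% in Control. Libraries of a group also differed in their GC trend, the mean log2 deviation of genes in the top GC quartile minus that of genes in the bottom quartile. It ranged from -0.15 to 0.34 with oxPAPC and from -0.53 to 0.29 in Control. Each library is bulk RNA, so fewer cells of a type and less RNA per cell cannot be told apart.

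Egr1 transcripts were lower with oxPAPC, and no other of the 10 genes passed the test. With the quasi-likelihood test of edgeR, p-values adjusted by Benjamini-Hochberg over all tested genes and a threshold of 0.05, 0 of 10 rose and 1 of 10 fell, where 13.3% of all genes passed, 6.75% higher and 6.52% lower. The share of members called is therefore close to that of all genes. DESeq2 had 1 of 10 as well, Egr1 again, where it called 16.6% of its genes. The authors' deposited table also called Egr1 alone, where it called 14.4% of its genes, and it gives no adjusted p for Egr2. At an unadjusted p under 0.05 the number was 5 of 10, against 27.5% of all genes, and these were Egr1, Egr2, Nr4a2, Nfatc3 and Tox. The median log2 fold change of the 10 genes was -0.04, and that of all genes was -0.01.

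**Figure D1:**
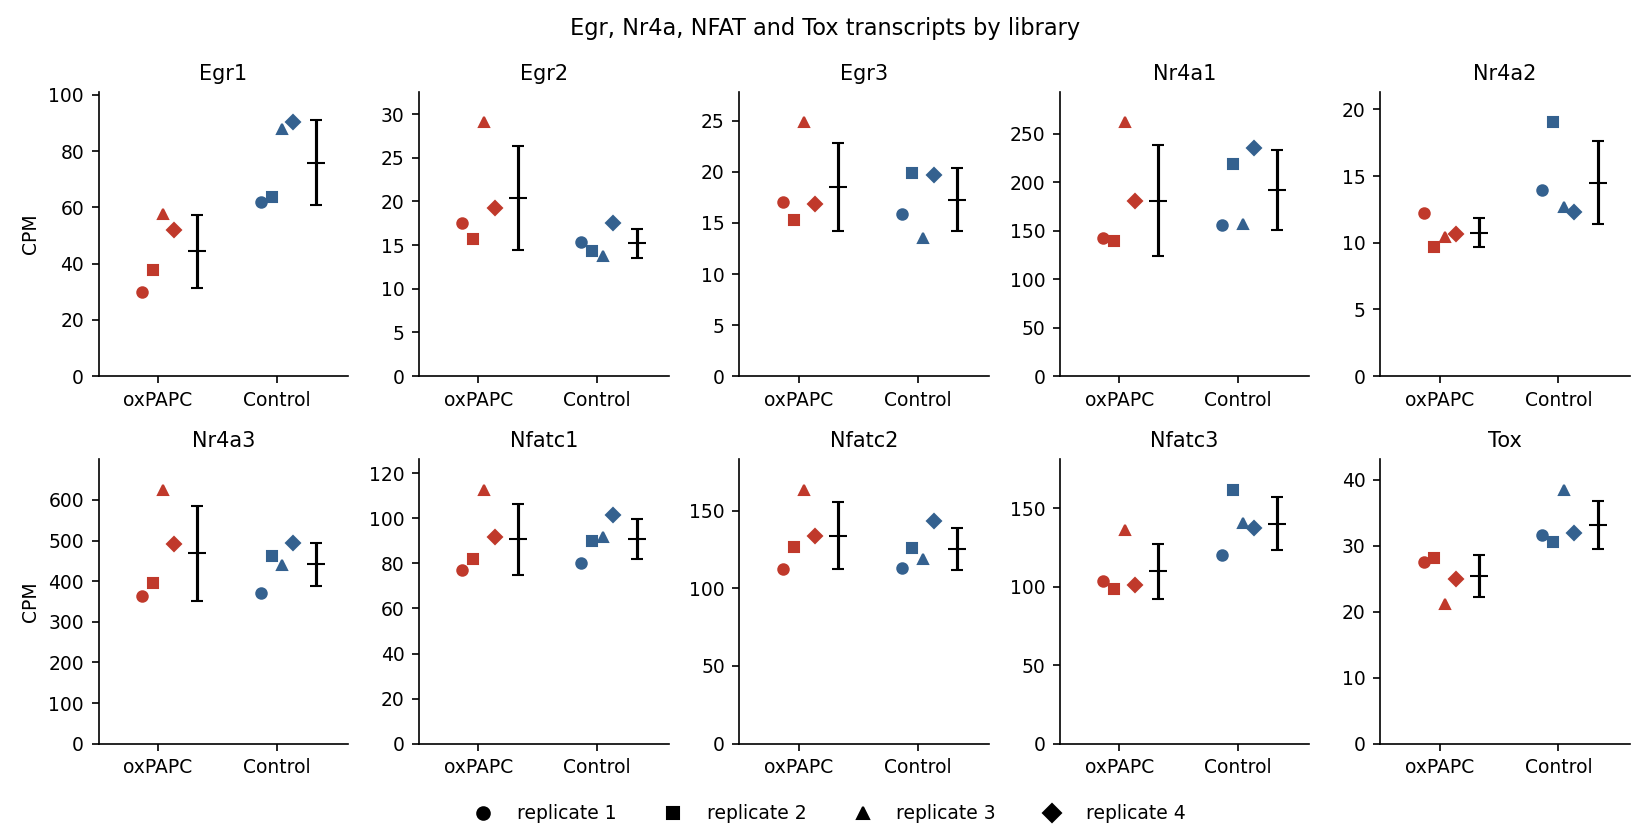
Transcript level (CPM) of each gene in the 4 oxPAPC libraries (red) and the 4 Control libraries (blue), with a marker shape per replicate number and the mean with SD in black. Egr1, Nr4a2 and Tox are lower in every oxPAPC library than in any Control library, and oxPAPC replicate 3 (triangle) is the highest of its group for 8 of the 10 genes.

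Egr1, a zinc finger factor made within minutes of receptor engagement, had 29.9, 37.6, 57.7 and 52.1 CPM in oxPAPC replicates 1 to 4, against 61.7, 63.8, 87.8 and 90.2 CPM in Control replicates 1 to 4. Every oxPAPC library was below every Control library, and both groups spread widely. The log2 fold change was -0.77 ± 0.21 (SE, edgeR adjusted p = 0.0232, 95% interval -1.22 to -0.33), that is 0.585 times the Control level. The call rested on single libraries: it was lost without oxPAPC replicate 1 (adjusted p = 0.0699), without oxPAPC replicate 2 (0.0645) and without Control replicate 4 (0.0653), with log2 fold changes of -0.63, -0.70 and -0.68. Scaling by library size alone also lost it (log2 fold change -0.65, adjusted p = 0.125), a setting that moved the median of all genes to 0.12. The authors' deposited table gives a log2 fold change of -0.74 for Egr1 with an adjusted p of 0.0134. Egr1 spans chr18:34859823-34864984 on GRCm38.

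Egr2, the closest relative of Egr3 in T cell tolerance, had 17.5, 15.7, 29.0 and 19.3 CPM in oxPAPC replicates 1 to 4, against 15.3, 14.3, 13.7 and 17.5 CPM in Control replicates 1 to 4. The groups overlapped, and oxPAPC replicate 3 stood above the other 7 libraries. Its log2 fold change was 0.43 ± 0.19 (SE, edgeR adjusted p = 0.158), and 0.20 without oxPAPC replicate 3 (adjusted p = 0.448). The authors' deposited table gives 0.46 for this gene and no p-value. Egr3 had 15.3 to 24.8 CPM with oxPAPC and 13.6 to 19.9 CPM in Control, and the 2 ranges overlapped. The log2 fold change of Egr3 was 0.11 ± 0.18 (SE, edgeR adjusted p = 0.763), and its sign turned without oxPAPC replicate 3 (-0.07).

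Within the Egr family, Egr1 had a smaller share and Egr2 a larger one with oxPAPC. Taken per kilobase of exon, Egr1 made up 49.0 ± 5.31% of the summed Egr1, Egr2 and Egr3 level with oxPAPC and 66.5 ± 5.21% in Control (SD, n = 4 each). Egr2 made up 29.8 ± 2.84% with oxPAPC and 17.9 ± 2.27% in Control, and Egr3 21.2 ± 2.7% with oxPAPC and 15.7 ± 3.38% in Control. The log2 ratio of Egr1 to Egr2 counts within a library, which library scaling does not change, was 0.77, 1.26, 0.99 and 1.43 in oxPAPC replicates 1 to 4, against 2.01, 2.15, 2.68 and 2.36 in Control replicates 1 to 4. The groups did not overlap, and the mean difference was -1.19. In all, 9 pairs of relatives were compared in this way by a two-sided exact permutation test over the 70 divisions of the libraries, whose smallest possible p is 0.0286. Egr1 to Egr2, Egr1 to Egr3 and Egr2 to Egr3 each reached it (adjusted p = 0.0429 over 9 pairs, exact), with differences of -1.19, -0.89 and 0.29. In all 6 of the 9 pairs reached it, all without overlap between groups. Some of the gaps were narrow. The lowest log2 ratio of Egr2 to Egr3 with oxPAPC was 0.037, against 0.014 at the highest in Control. For Egr1 to Egr3 the highest with oxPAPC was 1.63, against 1.68 at the lowest in Control. Ratios within a family are not independent, as each is set by the others, so the 6 are not separate results. The adjusted p is under 0.05 only because 6 pairs tie at the smallest possible p. A pair that reached it alone would not pass, so the adjusted p is no separate support for any 1 pair. The ratio did not overlap for 25.2% of all pairs of genes with a mean of at least 5 CPM. Of the pairs that hold Egr1, 47.4% did not overlap. With a library left out the smallest possible p is 0.0571, so no pair can pass there. The differences then ranged from -1.29 to -1.06 for Egr1 to Egr2 and from -1.04 to -0.71 for Egr1 to Egr3, with 0.19 to 0.36 for Egr2 to Egr3. Egr1 is richer in GC than the others, at 57.3% of its longest transcript against 51.4% for Egr2 and 51.3% for Egr3. With an offset for GC content and length the log2 fold changes were -0.75 for Egr1 and 0.40 for Egr2.

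**Figure D2:**
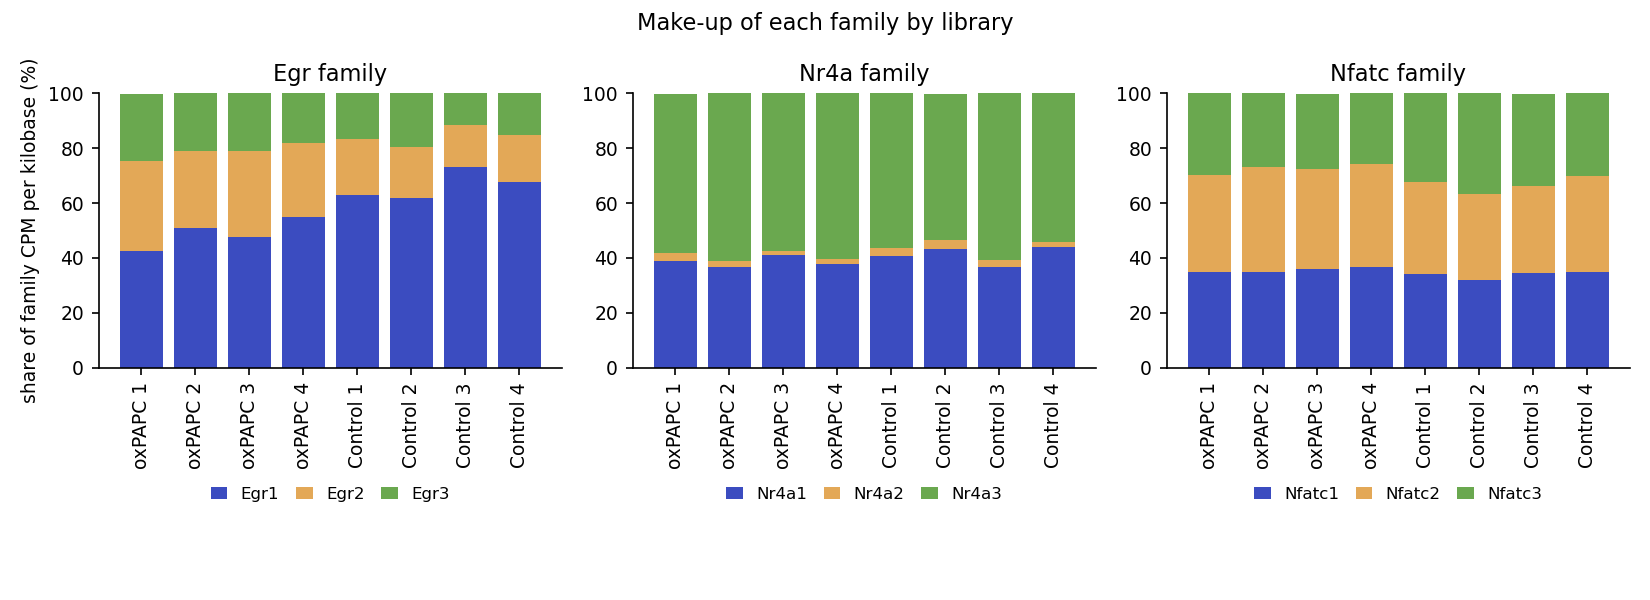
Share (%) of each gene in the summed CPM per kilobase of its family, 1 bar per library, for Egr (left), Nr4a (middle) and Nfatc (right). The Egr1 share is 42.5% to 55.0% in the oxPAPC libraries and 62.0% to 73.4% in the Control libraries, while Nr4a2 makes up at most 2.89% with oxPAPC and 3.25% in Control.

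Nr4a3 and Nr4a1 had the highest mean CPM of the 10 genes, and neither passed the test. Per library, the CPM of Nr4a1 overlapped that of Nfatc2 with oxPAPC and that of Nfatc3 in Control. Nr4a3 had 364, 396, 625 and 492 CPM in oxPAPC replicates 1 to 4, against 370, 462, 440 and 494 CPM in Control replicates 1 to 4. Its log2 fold change was 0.09 ± 0.20 (SE, edgeR adjusted p = 0.822, 95% interval -0.33 to 0.51), and -0.08 without oxPAPC replicate 3. Nr4a1, also called Nur77 and widely used as a reporter of receptor signalling, had 139 to 262 CPM with oxPAPC and 156 to 235 CPM in Control. The log2 fold change of Nr4a1 was -0.08 ± 0.22 (SE, edgeR adjusted p = 0.85, 95% interval -0.55 to 0.38), and its sign turned with library size scaling (0.07). For both genes the oxPAPC and Control libraries overlapped.

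Nr4a2, the least abundant of the 10 per kilobase, had 12.2, 9.72, 10.5 and 10.7 CPM in oxPAPC replicates 1 to 4, against 13.97, 19.0, 12.7 and 12.3 CPM in Control replicates 1 to 4. The groups did not overlap, but oxPAPC replicate 1 and Control replicate 4 were nearly equal. Its log2 fold change was -0.42 ± 0.17 (SE, edgeR adjusted p = 0.123). None of the 3 within-family ratios of the Nr4a genes passed (adjusted p = 0.193, 0.314 and 0.184, exact permutation, 9 pairs), and the log2 ratio of Nr4a1 to Nr4a3 was -1.39 ± 0.11 with oxPAPC and -1.22 ± 0.20 in Control (SD, n = 4 each).

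**Figure D3:**
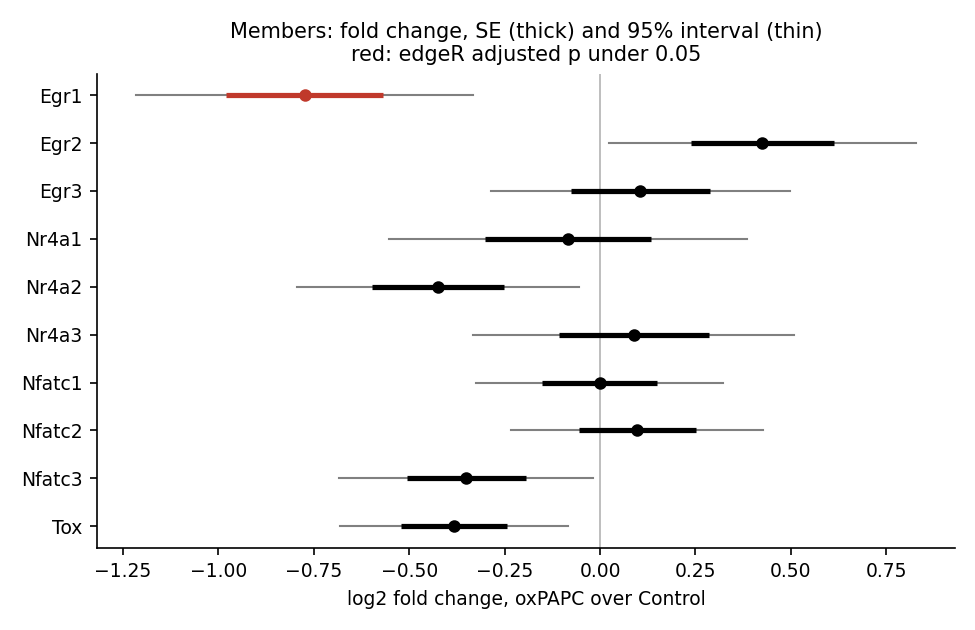
Log2 fold change of oxPAPC over Control for each gene, with the SE as a thick bar and the 95% interval as a thin bar. Egr1 (red) is the gene past the adjusted threshold, at -0.77, and the interval of Nfatc1 is centred close to 0.

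Nfatc1, the NFAT gene that T cell activation itself induces, had 77.1, 81.9, 113 and 91.5 CPM in oxPAPC replicates 1 to 4, against 80.3, 89.8, 91.7 and 102 CPM in Control replicates 1 to 4. The groups overlapped, with a mean of 90.8 ± 15.7 CPM with oxPAPC and 90.9 ± 8.76 CPM in Control (SD, n = 4 each). The 95% interval of its log2 fold change was -0.33 to 0.32 (edgeR adjusted p = 0.997). Its sign differed between scalings, at -0.0013 with TMM, 0.02 with RLE and 0.13 with library size. Nfatc2, the main NFAT protein of resting T cells, had 112 to 163 CPM with oxPAPC and 113 to 144 CPM in Control, and its log2 fold change was 0.10 ± 0.15 (SE, edgeR adjusted p = 0.737). Without oxPAPC replicate 3 that value was -0.01.

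Nfatc3, a further calcium-regulated NFAT factor of T cells, had 103, 98.2, 136 and 101 CPM in oxPAPC replicates 1 to 4, against 120, 162, 141 and 138 CPM in Control replicates 1 to 4. Replicates 1, 2 and 4 with oxPAPC lay below all Control libraries, while oxPAPC replicate 3 lay among the Control values. The log2 fold change was -0.35 ± 0.16 (SE, edgeR adjusted p = 0.159), and without oxPAPC replicate 3 it was -0.47 and passed (adjusted p = 0.0479). Set against its relatives within each library, Nfatc3 was lower with oxPAPC. The log2 ratio of Nfatc2 to Nfatc3 was 0.12, 0.37, 0.26 and 0.40 in oxPAPC replicates 1 to 4, against -0.09, -0.36, -0.25 and 0.06 in Control replicates 1 to 4. The groups did not overlap, and the difference was 0.45 (adjusted p = 0.0429 over 9 pairs, exact permutation), with 0.34 for Nfatc1 to Nfatc3 and -0.10 for Nfatc1 to Nfatc2 at the same p. That adjusted p too rests on the 6 pairs tied at the smallest possible p. The gap for Nfatc1 to Nfatc3 was narrow, with -0.424 at the lowest with oxPAPC and -0.435 at the highest in Control. Of all pairs that hold Nfatc3, 31.8% did not overlap. Nfatc3 made up 27.4 ± 1.66% of the summed NFAT level per kilobase with oxPAPC and 33.2 ± 2.69% in Control (SD, n = 4 each). A ratio shows unequal change and not which of the 2 genes changed, and with 45.9% GC Nfatc3 is poorer in GC than Nfatc1 (53.7%) and Nfatc2 (55.3%).

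Tox had 27.5, 28.2, 21.2 and 24.9 CPM in oxPAPC replicates 1 to 4, against 31.6, 30.5, 38.4 and 31.9 CPM in Control replicates 1 to 4. Every oxPAPC library was below every Control library. The log2 fold change was -0.38 ± 0.14 (SE, edgeR adjusted p = 0.0866), which missed the threshold, and the authors' deposited table gives -0.36 with an adjusted p of 0.104. Tox was the one gene that was lowest in oxPAPC replicate 3, where 8 of the other 9 were highest. In all, the oxPAPC and Control libraries did not overlap for 3 of the 10 genes (Egr1, Nr4a2 and Tox), all lower with oxPAPC. Across all tested genes 19.4% had no overlap, 9.86% of genes being lower and 9.5% higher with oxPAPC.

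Single libraries stood high or low for many of the 10 genes at once. oxPAPC replicate 3 was the highest of its group for 8 of 10 genes, all but Nr4a2 and Tox. In Control, replicate 4 was the highest for 6 genes (Egr1, Egr2, Nr4a1, Nr4a3, Nfatc1 and Nfatc2), and replicate 1 was the lowest for 6. Both of the high libraries were also at an end of their group in other measures. oxPAPC replicate 3 had the most counts of its group (20554614), the lowest mitochondrial share (1.72%, against 3.59% to 4.33% in the others) and the highest GC trend (0.34, against -0.15 to -0.02). Control replicate 4 had the most counts of its group (21619731), the lowest mitochondrial share (1.89%) and the highest GC trend (0.29, next to 0.25 in replicate 2). Control replicate 1, the low one, was at no end of its group in these measures, with 16872601 counts, a mitochondrial share of 5.68% and a GC trend of -0.10. The part of these measures in these shared highs and lows was not tested.

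**Figure D4:**
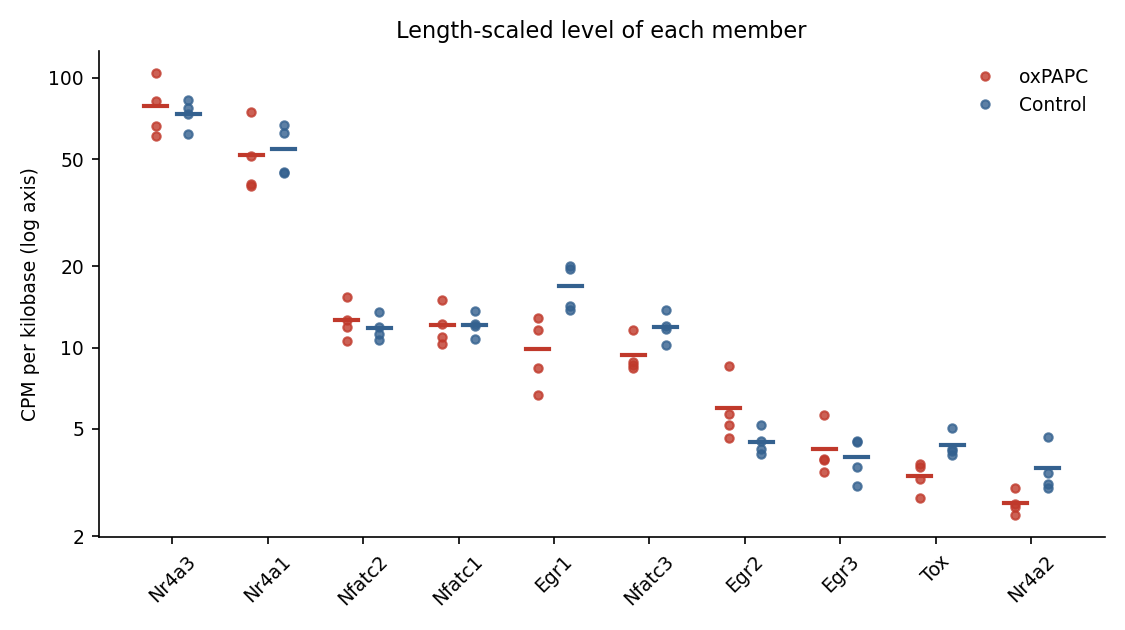
Level of each gene as CPM per kilobase of exon on a log axis, for oxPAPC (red) and Control (blue), with 1 point per library and a bar at the mean, ordered by the oxPAPC mean. Nr4a3 and Nr4a1 stand above the other genes in both groups, and Egr1 has rank 5 by mean with oxPAPC, against rank 3 in Control.

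Per kilobase of exon, Nr4a3 had the highest level in both groups, at 78.4 ± 19.6 CPM per kilobase with oxPAPC and 73.7 ± 8.80 in Control (SD, n = 4 each). Nr4a1 came next at 51.6 ± 16.3 with oxPAPC and 54.7 ± 11.8 in Control, below Nr4a3 in every library although the ranges over libraries overlapped. A gap followed in both groups, and no library of a lower gene reached any library of Nr4a1. With oxPAPC the next 4 genes, Nfatc2, Nfatc1, Egr1 and Nfatc3, had means of 12.7 to 9.36 CPM per kilobase, and neighbours in that order overlapped. In Control, Egr1 came next by mean at 16.9 ± 3.39, with every library above those of Nfatc1 (13.76 at the lowest for Egr1, 13.6 at the highest for Nfatc1) and a range that overlapped that of Nfatc3, while Nfatc1, Nfatc3 and Nfatc2 overlapped at 12.2 to 11.8. Egr2, Egr3, Tox and Nr4a2 formed the low end, between 5.997 and 2.65 with oxPAPC and between 4.48 and 3.57 in Control, and their neighbours overlapped. Each gene of the 10 lay above the median of tested genes in CPM, from percentile 51.0 (Nr4a2) to percentile 98.9 (Nr4a3).

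The genes whose profile over the 8 libraries was most like that of a member were sought among 9522 genes with a mean of at least 5 CPM, members and predicted genes left out, by Pearson's r of log2 CPM, as a description with no test. For Egr1 they were Ndrg3 and Poc1b (r = 0.987 each), which were lower with oxPAPC too, with log2 fold changes of -0.53 and -0.58 (edgeR adjusted p of 0.0389 and 0.0311). For Tox they were Ago3 (r = 0.973), with a log2 fold change of -0.51 (edgeR adjusted p = 0.0342), and Atp8a1 (r = 0.972). For Nr4a1 they were Sptan1 (0.996) and H6pd (0.994), for Nr4a3 Arhgap1 (0.989) and Ddx5 (0.984), and for Egr2 Msto1 (0.989) and Mrpl10 (0.982). For Egr3 they were Rcc2 (0.994) and Lsp1 (0.993). Those of Nfatc2 were Ppp2r1b (0.997) and Tsc2 (0.995), those of Nfatc1 Arid1a (0.984) and Nup188 (0.976), those of Nfatc3 Rmnd5a (0.977) and Sesn3 (0.975), and those of Nr4a2 Nudt21 (0.966) and Zfp706 (0.953). With 8 libraries and so many genes searched, high values of r are found for any profile.

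**Figure D5:**
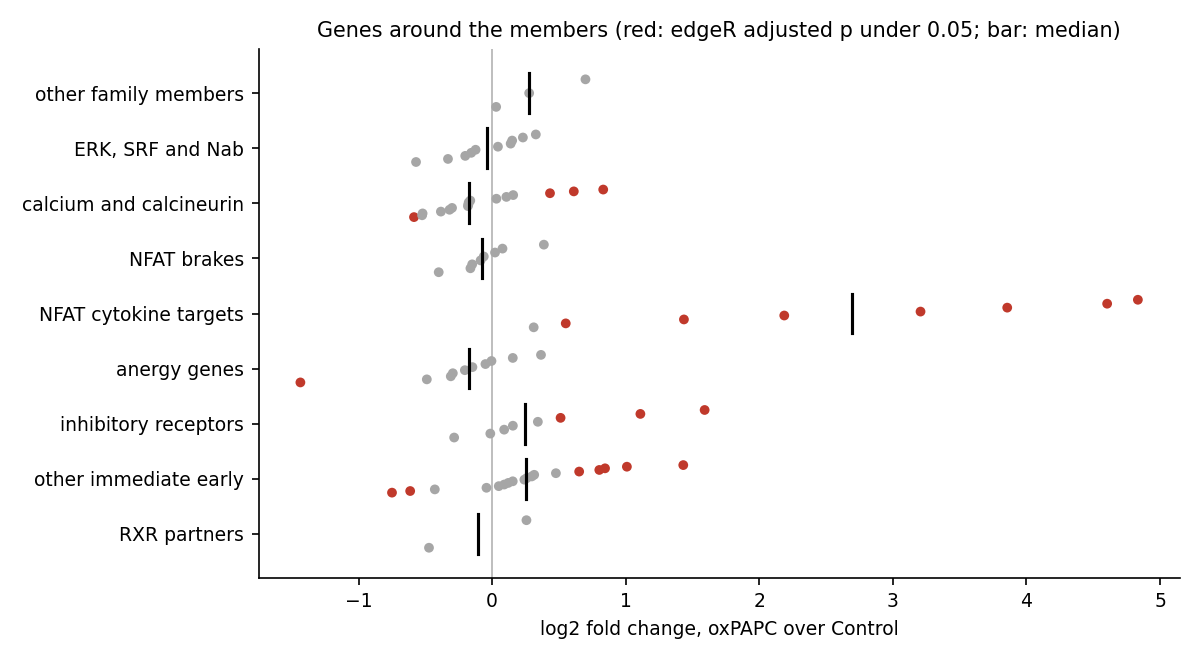
Log2 fold change of oxPAPC over Control for the tested genes of 9 lists around the members, with genes past the adjusted threshold in red and the median of each list as a bar. The NFAT cytokine targets lie far to the right, with a median of 2.697, and the medians of the other lists lie between -0.18 and 0.28.

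Around the members, 9 lists of pathway genes were examined, and of their 83 tested genes 18 rose and 4 fell, where 6.75% of all tested genes were higher and 6.52% lower. Of the 18, 7 are in the list of NFAT cytokine targets. All 9 lists were chosen with earlier results of these data known, so these counts are a description and no test of enrichment. Among upstream genes of the Egr route, 0 of 10 tested passed, with a median log2 fold change of -0.04. They include Srf, the kinase gene Mapk3, and Nab1 and Nab2, which repress Egr proteins. Elk4, a partner of serum response factor, had 103 ± 5.596 CPM with oxPAPC and 130 ± 9.53 CPM in Control (SD, n = 4 each, edgeR adjusted p = 0.115). Among other family members 0 of 3 tested passed. Nfat5, the calcineurin-independent NFAT gene, had 234 ± 28.1 CPM with oxPAPC and 193 ± 25.2 CPM in Control (SD, n = 4 each, edgeR adjusted p = 0.281), and it passed with the GC and length offset (adjusted p = 0.0353). Egr4 was below the count filter at 0.149 CPM with oxPAPC and 0.277 CPM in Control.

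Genes of the calcium and calcineurin route went both ways, with 3 of 16 tested higher, 1 lower and a median of -0.18. Of the higher genes, Orai1, the pore of the calcium channel, rose by 0.61 on the log2 scale (edgeR adjusted p = 0.0385) and Itpr1, an inositol trisphosphate receptor, by 0.43 (adjusted p = 0.0468). Ppp3cc, a catalytic subunit of calcineurin, fell by 0.58 on the log2 scale (adjusted p = 0.00543), with 36.7 ± 2.00 CPM with oxPAPC and 55.1 ± 1.93 CPM in Control (SD, n = 4 each). The Itpr1 call was lost whichever library was left out (adjusted p = 0.0526 to 0.145). The Orai1 call was lost without oxPAPC replicate 1 or 3 or Control replicate 1 or 3 (0.0789 to 0.107), and that of Ppp3cc with library size scaling (0.116). Plcg1, the phospholipase that starts the calcium signal, had a log2 fold change of -0.52 (adjusted p = 0.0761), and passed without oxPAPC replicate 3 (0.0345), with DESeq2 (0.0439), with the offset (0.0277) and with a filter at 5 CPM (0.0358). Of the brakes on NFAT 0 of 8 tested passed, with a median of -0.07. Among them Rcan1, a calcineurin inhibitor that NFAT itself induces, had 10.3 ± 1.70 CPM with oxPAPC and 10.8 ± 2.52 CPM in Control (SD, n = 4 each, edgeR adjusted p = 0.88). Csnk1a1, a kinase that keeps NFAT out of the nucleus, had a log2 fold change of -0.16 (adjusted p = 0.515).

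Of cytokine and effector genes known as NFAT targets, 7 of 8 tested rose, none fell, and the median was 2.697, a group whose rise in these libraries was known before it was listed. Of the 10 listed, Il2 was not analysed here, and Il21 was below the count filter, at 0.555 CPM with oxPAPC and 0.0114 CPM in Control. Il3 had 6.06 ± 1.64 CPM with oxPAPC and 0.424 ± 0.250 CPM in Control (SD, n = 4 each, log2 fold change 3.86, edgeR adjusted p = 2.06e-05). Tnf had 45.3 ± 11.2 CPM with oxPAPC and 16.7 ± 4.77 CPM in Control (SD, n = 4 each, log2 fold change 1.44, edgeR adjusted p = 0.000949). Il4 had 1.78 ± 0.854 CPM with oxPAPC and 0.388 ± 0.317 CPM in Control (SD, n = 4 each), a call lost without oxPAPC replicate 4 or Control replicate 1 or 2 (edgeR adjusted p = 0.0586 to 0.0831). Fasl, the death ligand, rose by 0.55, a call lost without oxPAPC replicate 1 or 4 or Control replicate 2 (adjusted p = 0.0507 to 0.0588). Ifng, Il13 and Csf2 completed the 7. Cd40lg did not pass, with 15.9 ± 6.30 CPM with oxPAPC and 12.9 ± 3.28 CPM in Control (SD, n = 4 each, edgeR adjusted p = 0.491). No NFAT transcript passed the test in the same libraries. Whether NFAT protein entered the nucleus was not measured.

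Of 10 tested anergy genes, a program that NFAT and Egr2 drive when costimulation is missing, 1 fell and none rose, with a median of -0.18. The 1 was Ndrg1, which had 10.7 ± 2.10 CPM with oxPAPC and 29.0 ± 5.89 CPM in Control (SD, n = 4 each, log2 fold change -1.44, edgeR adjusted p = 0.000252). The ubiquitin ligase gene Cblb and the kinase gene Dgka, both targets of Egr2 and Egr3, had log2 fold changes of -0.0047 and -0.15 (adjusted p = 0.989 and 0.649). Ikzf1, the most abundant of the list that did not pass, had -0.05 (adjusted p = 0.872). Of 8 tested genes in the inhibitory receptor list 3 rose and none fell, namely Tigit, Cd160 and Entpd1, with a median of 0.25. Not every gene of that list encodes a receptor, and Entpd1 encodes an enzyme. Cd160 had 5.46 ± 0.897 CPM with oxPAPC and 2.53 ± 0.670 CPM in Control (SD, n = 4 each, edgeR adjusted p = 0.00916). Entpd1 rose by 0.51, a call lost without any of oxPAPC replicates 1, 3 and 4 and Control replicates 1, 2 and 4 (adjusted p = 0.0744 to 0.112). Ctla4, the most abundant that did not pass, had a log2 fold change of -0.28 (adjusted p = 0.357). Pdcd1, a target of NFAT and Tox, had 90.2 ± 12.3 CPM with oxPAPC and 91.1 ± 9.54 CPM in Control (SD, n = 4 each, edgeR adjusted p = 0.967).

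Other immediate early genes went both ways. Of 18 tested 5 rose and 2 fell, with a median of 0.25. Jun had 190 ± 20.9 CPM with oxPAPC and 106 ± 14.3 CPM in Control (SD, n = 4 each, log2 fold change 0.85, edgeR adjusted p = 0.0026). Irf4, whose level follows the strength of the receptor signal, had 322 ± 70.1 CPM with oxPAPC and 120 ± 10.3 CPM in Control (SD, n = 4 each, log2 fold change 1.43, edgeR adjusted p = 0.000189). Myc and Ier3 rose by 0.80 and 1.01 (adjusted p = 0.0128 and 0.00186). Junb rose by 0.65 (adjusted p = 0.0458), a call lost on leaving out any library but oxPAPC replicate 2 (0.0559 to 0.108). Nfkbia, an NF-kappaB inhibitor and the most abundant that did not pass, had a log2 fold change of 0.30 (adjusted p = 0.224). Zfp36, which destabilizes cytokine transcripts, fell by 0.75 (adjusted p = 0.00637), and Btg2, a brake on proliferation, fell by 0.61 (adjusted p = 0.00638), a call lost with library size scaling (0.103). Fos had 9.64 ± 1.42 CPM with oxPAPC and 13.0 ± 2.60 CPM in Control (SD, n = 4 each, edgeR adjusted p = 0.151). The RXR genes, whose products pair with Nr4a1 and Nr4a2, gave 0 of 2 tested, and Rxrb had a log2 fold change of -0.47 (adjusted p = 0.0942). Rxrb passed without oxPAPC replicate 3 (edgeR adjusted p = 0.0301), with the GC and length offset (0.0403) and with a filter at 5 CPM (0.0456).

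Genes that mark other cells were low beside the T cell genes, and some were higher with oxPAPC. The B lineage list summed to 57.9 to 97.1 CPM with oxPAPC and 58.1 to 78.7 CPM in Control, with 3 of 6 tested higher. The 5 myeloid genes found in the table, of 7 listed, summed to 6.41 to 8.28 CPM with oxPAPC and 1.96 to 2.65 CPM in Control. Mpeg1 made up most of that difference, at 4.02 CPM with oxPAPC and 0.203 CPM in Control, while Lyz2 had 0.648 CPM with oxPAPC and 0.409 CPM in Control. For dendritic cells 4 of 6 genes summed to 12.5 to 15.3 CPM with oxPAPC and 6.19 to 10.8 CPM in Control, with 1 higher of 3 tested. Cd8a and Cd8b1 summed to 10.9 to 18.7 CPM with oxPAPC and 6.72 to 8.90 CPM in Control, with 1 of 2 higher. Natural killer genes summed to at most 1.52 CPM with oxPAPC and 1.36 CPM in Control over the 2 of 5 in the table. Erythroid genes, 3 of 4, summed to 4.63 to 12.2 CPM with oxPAPC and 4.30 to 6.95 CPM in Control. Other cell types also transcribe Egr, Nr4a and NFAT genes, and the part of such cells in the values above was not tested.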

How the data were processed

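RNA of 4 oxPAPC and 4 Control Treg libraries was sequenced after poly(A) selection, per the labels' protocols. Tools named in the submitters' processing notes are STAR 2.7.8a, featureCounts 2.0.2 and DESeq2 1.30.1, on GRCm38.p6. The strand setting of counting is not stated in these sources. The authors deposited whole-number counts per gene, not normalized, with scaled-count means (a signal per group), log2 fold changes, test scores, p-values and fold ratios, per the file headers. All 19330 genes reach 5 counts in 2 or more libraries.

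Counts were filtered with filterByExpr, scaled by TMM and tested on all 16434 genes by quasi-likelihood with edgeR 4.0.16 (R 4.3.3). On simulated data the test found only 9 out of 67 genes that were set to differ by a factor of 1.5. With a factor of 2 it found 39 out of 67, and with a factor of 4 it found 60 out of 66. These rates do not give the chance of finding a change in the members. At most 67 genes per factor were set to differ among 16434, while 2182 genes passed in the real libraries. With fewer changed genes the Benjamini-Hochberg adjustment is stricter. The rates are also not split by expression level, and each member lay above the median CPM of tested genes. A gene that missed the threshold may still differ between the groups, most readily by a small factor. SEs are the log2 fold change over the square root of F. SEs of the members did not follow their counts, and the spread between libraries had a common biological coefficient of variation of 0.207. Lengths are unions of exons in GENCODE M21, as the deposited table gives none, and promoters come from RefSeq (GRCm38.p6). For the log2 ratios 0.5 was added to each count. Members, lists and tests were chosen with earlier results of these data known. Named are the members, list genes past the threshold, the most abundant list gene that missed it, the closest profiles, and a few further list genes picked after their values were seen. Some genes that this takes are left out of the text. Deviations of same-numbered libraries correlated at 0.58, 0.02, -0.38 and -0.14, so numbers were not taken as pairs. Alternatives were other scalings and filters, DESeq2 1.42.0, limma 3.58.1 voom, a replicate block, an offset for GC and length (loess span 0.5), 2 abundant noncoding genes left out, and each library left out.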

Additional observations from a re-analysis of the deposited data

Results flagged for a closer look

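The 10 genes in 2 groups each gave 20 sets of 4 values, and in 1 of them a library lay far from the rest. The rate by chance is about 1 in 20 for independent sets, but these sets share libraries. Nfatc3 had 136 CPM in oxPAPC replicate 3, against 98.2 to 103 CPM in the other oxPAPC libraries. That library was the highest of its group for 8 of the 10 genes, and the cause was not tested. Control libraries had 120 to 162 CPM.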

How the results depend on the processing

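Of the 10 genes, only Egr1 passed, and over 17 other settings its log2 fold change ranged from -0.93 to -0.63. The number of lower genes was 0 with library size scaling and 0 to 2 with a library left out, the 2 being Egr1 and Nfatc3. Signs turned for genes near 0. With library size scaling Nr4a1 had 0.0741 and Nfatc1 0.133, and Ikzf1 had 0.0871. Nfatc1 also turned with RLE scaling (0.0209), with no filter (0.00678), with DESeq2 (0.021) and with the GC and length offset (0.0475). With a library left out the ranges were -0.122 to 0.0714 for Nfatc1, -0.317 to 0.0291 for Nr4a1, -0.0726 to 0.188 for Egr3, -0.0809 to 0.194 for Nr4a3 and -0.0119 to 0.176 for Nfatc2. Causes were not tested. List genes that fell numbered 4, against 2 with library size scaling, 7 with the 5 CPM filter, 7 with DESeq2, 8 with the offset and 4 to 9 with a library left out. Of 22 list genes that passed, 14 kept direction and call in every setting that tested them. The 6 within-family ratios that passed were 0 with a library left out and 0 with the replicate block, designs whose smallest p is 0.0571 and 0.125. As a replicate block in edgeR the number gave -0.80 for Egr1 (adjusted p = 0.0105) and 1453 genes in all, against 2182, and it lost the calls of Itpr1, Orai1, Il4, Entpd1 and Junb. The offset called 3253 genes, and library size scaling 458 lower genes of 1612 called, against 1072 of 2182. Without the length correction 4 of 10 genes kept their rank in oxPAPC and 3 of 10 in Control.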
